A study of Mus musculus with 4 samples.

Results

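Ddx6 KO mouse embryos were smaller and developmentally delayed, so the transcripts of 48 genes that act in DNA replication and in mitosis were compared between KO and WT embryos. The genes were taken by symbol from a list, out of 24421 genes in the count table, and the list was drawn up with earlier results of these data known. They comprise 12 genes of the replicative helicase and of origin licensing, 6 of DNA synthesis and nucleotide supply, 11 regulators of G1 and S phase, 11 of mitotic entry and exit, and 8 of the spindle, the chromosomes and proliferation. All 48 were detected in every library, with between 82 and 9670 reads, and all passed the filter that kept 14393 genes. The median of their mean read counts was 2191, against 285 over the genes kept.

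RNA of whole ICR embryos was sequenced in 4 libraries: wild-type at E7.5 (WT E7.5), wild-type at E8.5 (WT E8.5), and Ddx6 -/- at E8.5 in replicate 1 (KO1) and replicate 2 (KO2). Ddx6 encodes an RNA helicase of mRNA decay and translational repression, and the KO allele lacks an exon that was floxed and then removed in the germline with CAG-Cre. KO embryos were pooled: per the study, KO1 combined an embryo from before and an embryo from after head-fold formation, whereas KO2 held only embryos from before it. With 1 library per WT stage, the spread could be estimated only between the KO libraries, whose pools also differed in morphology. In bulk RNA from whole embryos, fewer cells of a type and less RNA per cell cannot be told apart.

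Before S phase, each origin of replication is licensed. CDC6 and CDT1 load the ring of MCM2 to MCM7 onto DNA, and CDC45, the GINS complex and MCM10 later turn the loaded ring into the working helicase. Cyclins with their kinases time these steps, and many genes of licensing and DNA synthesis are transcribed under E2F factors at the G1/S transition. The genes of mitosis are transcribed later, in G2, often through a promoter word called the CHR, which the DREAM and MYB-MuvB complexes recognize. Cells of the early post-implantation embryo divide fast, so both groups are abundantly transcribed there.

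The 2 classes of promoter word occurred at different rates in the helicase genes and the mitotic genes, a difference that was not tested. Promoters of 250 bases before to 50 after the start, from RefSeq on GRCm38.p6, were matched for 37 of the 48 genes. An E2F word, GCGGGAAA or TTTGGCGC on either strand, was found in 6 of 9 helicase and licensing genes, 0 of 8 genes of mitotic entry and exit and 0 of 6 spindle and proliferation genes. Of all 27025 genes with a promoter 1.8% held it, and of the 10875 with a promoter among the genes kept 3.32%. The CHR word TTTGAA on either strand was found in 2 of 9, 6 of 8 and 4 of 6, against 20.2% and 13.8%. CCAAT, which accompanies the CHR in many mitotic promoters, was frequent in all 3 groups. It was found in 7 of 9 helicase and licensing genes, 8 of 8 genes of mitotic entry and exit and 5 of 6 spindle and proliferation genes. The shares over all genes with a promoter and over those kept were 41.1% and 42.6%. No matches overlapped. A match describes the letters only and is no evidence of binding. No further motif was searched. The CHR matches of the helicase genes Mcm2 and Cdc45 are among those not shown. The windows of 30 bases that follow come from genes picked for a match, so they illustrate the words and no difference between the groups. Capitals mark the E2F word in the first 6, which are the helicase and licensing genes with a match, and the CHR word in the others. Each window reads 5′ to 3′ in the direction of transcription.
Mcm3: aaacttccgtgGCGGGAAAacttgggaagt
Mcm5: caagaactttcGCGCCAAAacgtccagcct
Mcm6: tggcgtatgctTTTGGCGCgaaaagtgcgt
Mcm7: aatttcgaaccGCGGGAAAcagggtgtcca
Cdc6: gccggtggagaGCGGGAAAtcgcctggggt
Cdt1: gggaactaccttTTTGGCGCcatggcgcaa
Cdk1: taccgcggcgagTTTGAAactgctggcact
Ccnb2: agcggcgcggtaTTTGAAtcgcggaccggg
Cdc20: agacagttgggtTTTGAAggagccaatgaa
Plk1: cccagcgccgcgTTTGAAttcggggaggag
Mki67: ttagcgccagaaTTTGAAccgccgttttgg
Top2a: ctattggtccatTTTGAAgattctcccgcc

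Coordinates in parentheses are those of the printed windows, and distances are those of the words. The E2F words of Mcm5 (chr8:75109349-75109378, plus strand), Mcm6 (chr1:128359797-128359826, minus), Mcm7 (chr5:138172030-138172059, minus) and Cdc6 (chr11:98908002-98908031, plus) began 149, 110, 165 and 138 bases before the annotated start. Those of Mcm3 (chr1:20820275-20820304, minus) and Cdt1 (chr8:122568035-122568064, plus) began 19 and 32 bases after it. Among the CHR words shown, those of Cdk1 (chr10:69352910-69352939, minus), Cdc20 (chr4:118437344-118437373, minus), Mki67 (chr7:135716478-135716507, minus) and Top2a (chr11:99024351-99024380, minus) began 15, 18, 116 and 179 bases before the start. Those of Ccnb2 (chr9:70421533-70421562, minus) and Plk1 (chr7:122159453-122159482, plus) began 4 and 30 bases after it. The promoters of Mcm3, Mcm6, Mki67, Cdk1, Ccnb2 and Top2a each held a further match to the same word class that is not shown.

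KO1 was the shallowest library with 8198402 counts, and WT E8.5 the deepest with 12562640. Levels are given as TMM CPM, that is counts brought to a common library size with the trimmed mean of M-values, and changes as differences of log2 CPM. Ddx6 itself had 2943 reads in WT E7.5, 5715 in WT E8.5, 706 in KO1 and 929 in KO2. KO2 stood apart in trophoblast giant cell markers, with 4156 reads of Prl3d1 and 3193 of Prl7a1 where the other libraries had at most 27 and 32, although such families of near-identical genes can share reads. Xist had 17340 reads in KO2 and at most 46 elsewhere. The primitive erythroid marker Hba-x had 1221 reads in WT E8.5 and at most 1 in the other 3 libraries. The summed level of 6 cardiac muscle markers was 11.8 CPM in WT E7.5, 237 in WT E8.5, 47.3 in KO1 and 31.6 in KO2, and that of 7 visceral endoderm markers was 5316, 4065, 2546 and 2544. The summed level of the 6 primitive erythroid markers was 20.3, 245, 1.79 and 1.64 CPM in the same order, and that of 6 post-mitotic neuron markers 77.2, 76.2, 147 and 176. For 8 trophoblast giant cell markers it was 224, 182, 423 and 1089, and for 6 decidua markers 208, 97.97, 158 and 238. The 8 giant cell markers had 2660, 2237, 3555 and 13272 reads, of which Hand1 alone held 2570, 2229, 3544 and 4028. Prl3b1 had 0 reads in every library, and Ctsj and Ctsq at most 1. The 6 decidua markers had 2470, 1204, 1327 and 2902 reads, of which Prl8a2 alone held 1318, 26, 64 and 1433. The part of these cell types in the changes of the replication and mitosis genes was not tested.

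The first question was whether KO embryos had fewer proliferation transcripts than WT embryos of the same day. None of the 48 genes differed 2-fold from WT E8.5 in both KO libraries, whereas 3.44% of all genes kept were higher and 1.79% lower by that criterion. None differed even 1.5-fold in both, against 8.48% and 4.29%. Small differences were mostly downward: 30 of the 48 were lower in both KO libraries (37.6% of all genes kept) and 6 were higher, namely Aurka, Ccnb1, Ccnb2, Ccne1, Cdk6 and Prim1 (36.3%). Since both KO libraries were set against the same WT library, their directions are not independent. The median change of the 48 genes was -0.14 in KO1 and -0.18 in KO2. Over all genes kept it was -0.01 and 0.00, and over the 5205 genes with a mean of at least 500 reads -0.06 and -0.05. The summed level of the 48 genes was 10749.5 CPM in WT E7.5, 11120 in WT E8.5, 10089 in KO1 and 9779 in KO2. It was thus 9.27% lower in KO1 and 12.1% lower in KO2 than in WT E8.5.

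The edgeR test against WT E8.5 called 0 of the 48 after adjustment, as it did of all genes (0.0%). At an unadjusted p under 0.05 there were 4, namely E2f1, Mcm3, Mcm4 and Mcm7, all lower in 2 of 2 KO libraries, while 7.31% of all genes passed. DESeq2 called 0 of the 48 after adjustment, where it called 0.215% of all genes. At the same unadjusted threshold it passed Mcm3, Mcm4 and Mcm7, where 3.53% of all genes passed. The lone WT library was assumed to vary as the KO libraries do, for which edgeR estimated a biological coefficient of variation of 0.275.

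**Figure D1:**
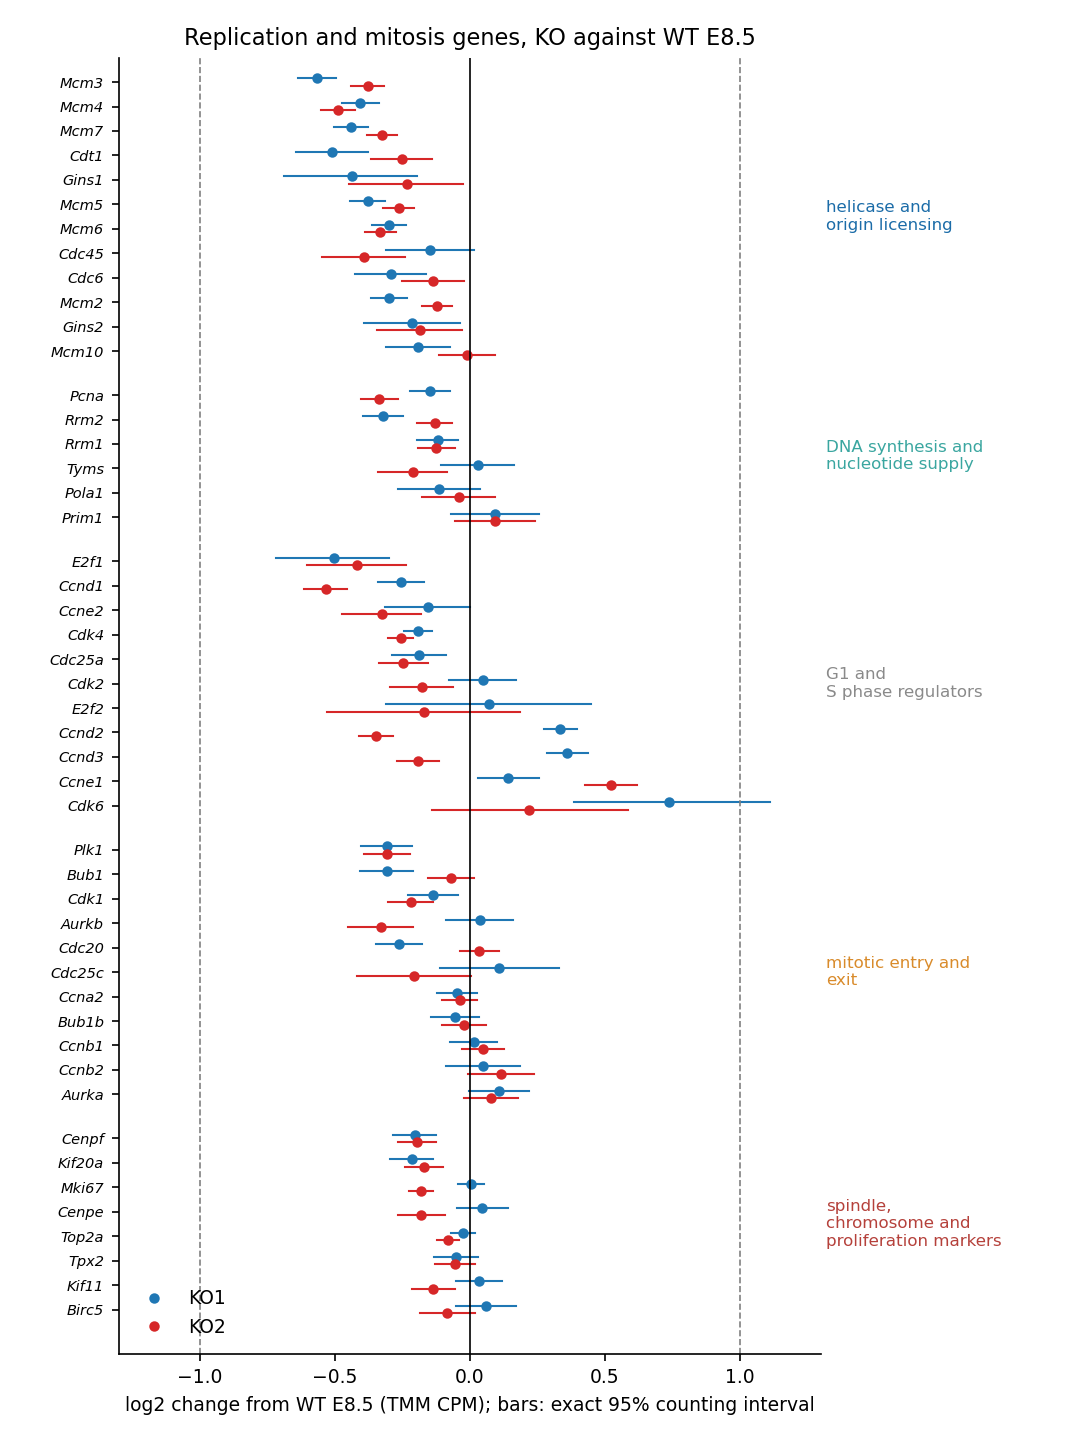
Log2 change of each of the 48 genes from WT E8.5 (x axis) in KO1 (blue) and KO2 (red), ordered within each role by the mean of both. Bars are exact 95% intervals for counting error alone, and dashed lines mark a 2-fold difference; no gene has both points past a dashed line, and all 12 helicase and licensing genes lie below 0 in both libraries.

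The helicase and licensing genes were the most uniformly lower of the 5 roles. For all 12, both KO libraries stood below either WT library, against 17.6% of all genes kept. Among genes with a mean of at least 500 reads the share was 23.6%. Corrected for transcript length and GC content, as described with the comparison to WT E7.5, 8 of the 12 stayed below both, against 18.6% of all genes. Their median change against WT E8.5 was -0.34 in KO1 and -0.26 in KO2, and against WT E7.5 it was -0.50 and -0.41. Together they summed to 3497 CPM in WT E7.5, 3128 in WT E8.5, 2407 in KO1 and 2561 in KO2, which is 23.0% and 18.1% below WT E8.5. The counting interval of the change from WT E8.5 lay below 0 for 11 of 12 genes in KO1 and for 11 of 12 in KO2. Mcm10 in KO2 and Cdc45 in KO1 were the exceptions. The share of all genes with such an interval was not computed, and a high read count narrows the interval.

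Mcm3 (chromosome 1, 20802968 to 20820312, minus strand), a subunit of the MCM ring, had the largest mean change of the 12. Its level was 449 CPM in WT E7.5, 413 in WT E8.5, 279 in KO1 and 317 in KO2. Both KO libraries lay below both WT libraries, at 67.6% and 76.9% of the WT E8.5 level. The mean log2 change was -0.47 ± 0.13 (SD, n = 2), with counting intervals of -0.64 to -0.49 in KO1 and -0.44 to -0.32 in KO2. With edgeR, its p was 0.0276 before and 0.666 after adjustment.

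The other subunits of the ring were also lower in both KO libraries, by smaller means. Mcm4 (chromosome 16, 15623897 to 15637400) stood at 342, 406, 307 and 290 CPM in WT E7.5, WT E8.5, KO1 and KO2, so that WT E8.5, not WT E7.5, was the highest library. Its mean change from WT E8.5 was -0.45 ± 0.06 (SD, n = 2). With edgeR, the p of Mcm4 was 0.0193 before adjustment and 0.666 after it. Mcm7 (chromosome 5, 138164583 to 138172422) stood at 568, 485, 357 and 387 CPM, a mean change of -0.38 ± 0.08 (SD, n = 2). Its edgeR p was 0.0393 unadjusted and 0.666 adjusted.
Mcm5 was at 535, 449, 345 and 374 CPM and Mcm6 at 498, 443, 360 and 352 CPM. In both genes the KO libraries lay below both WT libraries, and WT E7.5 was the highest. Mcm2, at 507, 429, 348 and 394 CPM, came closer to WT E8.5 in KO2 (a change of -0.12) than in KO1 (-0.30). Of the 6 ring subunits, the mean change from WT E8.5 thus ran from -0.47 for Mcm3 to -0.21 for Mcm2.

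Of the loaders of the ring, Cdt1 (chromosome 8, 122568015 to 122573554) had the larger change. It was at 160 CPM in WT E7.5, 116 in WT E8.5, 81.6 in KO1 and 97.5 in KO2, 1.42-fold and 1.19-fold lower than in WT E8.5. Cdc6, at 118, 106, 86.8 and 96.8 CPM, was 1.22-fold and 1.10-fold lower. The level of both was highest in WT E7.5 and lowest in KO1.

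The factors that activate the ring were also lower. Cdc45 was at 63.7, 65.0, 58.7 and 49.5 CPM, Gins1 at 31.8, 33.1, 24.4 and 28.1, and Gins2 at 54.6, 57.9, 49.9 and 50.9. These 3 differed little between the WT stages and were lower in both KO libraries. Corrected for length and GC content, they were higher in WT E8.5 than in WT E7.5 by 0.21, 0.20 and 0.27. They stayed lower than WT E8.5 in both KO libraries, but no longer lay below both WT libraries. Mcm10, at 170, 124, 109 and 123 CPM, was nearly equal in KO2 and WT E8.5, a change of -0.01 with a counting interval of -0.12 to 0.09. After the correction this change was 0.009, so that Mcm10 did not lie below both WT libraries either. With CPM scaled to library totals alone, 11 of the 12 helicase and licensing genes were below both WT libraries, against 13.6% of all genes.

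Genes of DNA synthesis and nucleotide supply were lower by less. Their median change against WT E8.5 was -0.12 in KO1 and -0.13 in KO2. Of the 6, 2 were below both WT libraries, Rrm1 and Rrm2, against 17.6% of all genes kept. Corrected for length and GC content, Rrm1 stood at -0.003 in KO1 and 0.005 in KO2 against WT E8.5, and only Rrm2 stayed below both. Pcna, the sliding clamp of the polymerases, was at 260, 319, 288 and 253 CPM in WT E7.5, WT E8.5, KO1 and KO2, within the WT range in KO1 and, by a margin within counting error, below it in KO2. Its mean change from WT E8.5 was -0.24 ± 0.13 (SD, n = 2), although Pcna has 2 annotated pseudogenes that may share its reads.

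Rrm1 and Rrm2 encode the subunits of ribonucleotide reductase, which supplies deoxynucleotides. Rrm2 was at 370, 339, 271 and 310 CPM, and Rrm1 at 315, 301, 277 and 276. In Rrm1 both KO libraries were 1.09-fold lower than WT E8.5. Prim1, the primase subunit that starts each strand, was the only gene of the 6 that was higher than WT E8.5 in both KO libraries, at 66.0, 58.6, 62.5 and 62.5 CPM. Its counting interval included 0 in both.

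Pola1, the catalytic subunit of polymerase alpha, is the one X-linked gene of the 48. It was at 43.2 CPM in WT E7.5, 75.7 in WT E8.5, 69.9 in KO1 and 73.5 in KO2, so that WT E7.5 alone stood apart. Its change from WT E7.5 to WT E8.5 was 0.81, and 0.29 after correction for length and GC content. After that correction both KO libraries lay above both WT libraries, over WT E8.5 by 0.002 in KO1 and 0.09 in KO2. KO1 and KO2 differed by 0.07 (log2) in Pola1, while their Xist reads were 15 and 17340. Tyms, the thymidylate synthase, ranged from 76.8 CPM in KO2 to 96.5 in WT E7.5, and has 1 annotated pseudogene.

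The regulators of G1 and S phase had no common direction. Their median change against WT E8.5 was 0.05 in KO1 and -0.25 in KO2. E2f1 (chromosome 2, 154559407 to 154569892), an activating E2F factor, was the lowest at 52.1 CPM in WT E7.5, 47.2 in WT E8.5, 33.2 in KO1 and 35.3 in KO2. Both KO libraries lay below both WT libraries, with a mean change from WT E8.5 of -0.46 ± 0.06 (SD, n = 2). Its edgeR p was 0.0463 unadjusted and 0.666 adjusted. Cdk4, the kinase partner of the D cyclins, and Cdc25a, the phosphatase that activates CDK2, were also below both. Cdk4 was at 745, 659, 578 and 552 CPM, and Cdc25a at 179, 175, 153 and 147 CPM. Corrected for length and GC content, Cdc25a stayed below both and Cdk4 did not, with a change of 0.09 from WT E7.5 in KO1.

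The D cyclins, which pair with CDK4 and CDK6 in response to growth signals, separated the KO libraries from each other. Ccnd2 was at 117, 374, 472 and 294 CPM in WT E7.5, WT E8.5, KO1 and KO2, above WT E8.5 in KO1 and below it in KO2. Ccnd3, at 313, 243, 312 and 213 CPM, split the same way and has 1 annotated pseudogene. Ccnd1, at 139, 257, 215 and 177 CPM, was lower than WT E8.5 in both. The KO libraries differed by -0.68 (KO2 minus KO1) in Ccnd2 and by -0.55 in Ccnd3.

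Cdk6 and Ccne1 were the highest of this role against WT E8.5. Cdk6, the second partner of the D cyclins, had 82 reads in WT E7.5, 121 in WT E8.5, 139 in KO1 and 140 in KO2, which is 6.89, 9.85, 16.6 and 11.5 CPM. Both KO libraries lay above both WT libraries, but the counting interval of the change from WT E8.5 included 0 in KO2 (-0.14 to 0.59). Ccne1, cyclin E1 of the G1/S transition, was at 216, 120, 132 and 172 CPM, so that both KO libraries lay between the WT stages. Its relative Ccne2, at 41.2, 71.0, 63.7 and 56.6 CPM, also lay between them and ran the opposite way across the WT stages.

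The genes of mitotic entry and exit stayed close to WT E8.5, with a median change of -0.05 in KO1 and -0.04 in KO2. Plk1 (chromosome 7, 122159439 to 122169873), the polo-like kinase of mitotic entry and spindle assembly, was the lowest at 241, 212, 171 and 171 CPM in WT E7.5, WT E8.5, KO1 and KO2. Both KO libraries were 1.24-fold lower than WT E8.5 and below both WT libraries. Its adjusted edgeR p was 0.666. Cdk1, the kinase that drives entry into mitosis, was also below both, at 216, 203, 185 and 175 CPM. Bub1b, a checkpoint kinase-like protein, was below both by a margin within counting error, at 204, 205, 198 and 202 CPM.

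The mitotic cyclins showed no reduction of such a size. Ccnb1 was at 190, 215, 217 and 222 CPM, which put both KO libraries above both WT libraries, over WT E8.5 by a margin within counting error. Ccnb2 was at 105, 86.1, 89.1 and 93.3 CPM, Ccna2 at 252, 308, 298 and 300, and Aurka, the centrosomal Aurora kinase, at 174, 127, 137 and 134. In each of these 3 the KO libraries lay between the WT stages. The counts of Ccnb1 and Ccnb2 may include reads of 1 annotated pseudogene each. Bub1, a kinase of the spindle checkpoint, was at 133, 188, 152 and 179 CPM.

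Of the 8 spindle, chromosome and proliferation genes, none was below or above both WT libraries, against 17.6% and 18.4% of all genes. Their median change against WT E8.5 was -0.01 in KO1 and -0.15 in KO2. Mki67, the widely used proliferation marker Ki-67, was at 422 CPM in WT E7.5, 678 in WT E8.5, 680 in KO1 and 598 in KO2. Its change from WT E8.5 was 0.00 in KO1 (counting interval -0.04 to 0.05) and -0.18 in KO2 (-0.23 to -0.13). Top2a, the topoisomerase that untangles chromosomes, was at 675, 787, 773 and 744 CPM. Cenpf and Kif20a were the lowest, at 182, 280, 243 and 244 CPM and at 240, 279, 240 and 248 CPM. Birc5 and Kif11 were the highest, at 151, 132, 138 and 125 CPM and at 153, 224, 229 and 204 CPM.

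**Figure D2:**
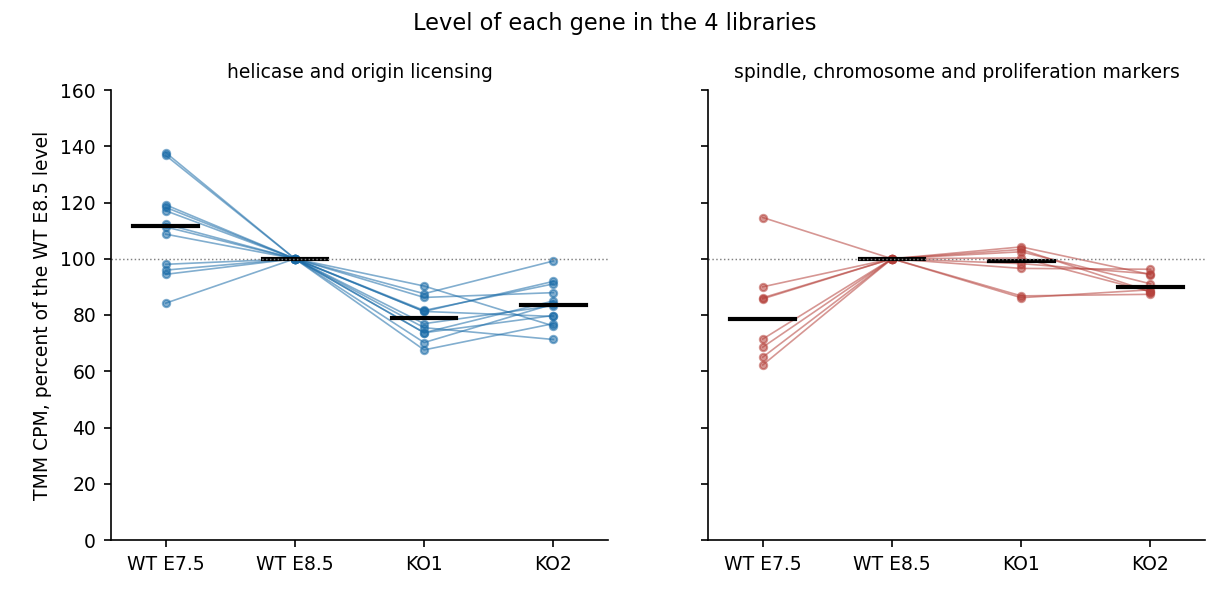
TMM CPM of each of the 12 helicase and licensing genes (left) and of the 8 spindle, chromosome and proliferation genes (right) in the 4 libraries, as a percent of the WT E8.5 level (y axis). Each line is a gene and each black bar a median. Both KO libraries lie below both WT libraries for all 12 genes on the left and for 0 of the 8 on the right. Of all genes kept, 17.6% do so.

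Side by side, the helicase genes and the spindle and proliferation genes kept different proportions in the 4 libraries. The ratio of their summed CPM was 1.61 in WT E7.5, 1.11 in WT E8.5, 0.881 in KO1 and 0.999 in KO2. It was lower in both KO libraries than in either WT library. From WT E7.5 to WT E8.5 the median change was -0.16 for the helicase and 0.35 for the spindle genes. Corrected for transcript length and GC content, as described with the comparison to WT E7.5, it was 0.0045 and -0.13. No corrected ratio was computed. With 1 library per stage, stage and library cannot be told apart. The difference between the roles was not tested. The mean change of the 12 helicase and licensing genes from WT E8.5 ran from -0.47 to -0.10, and that of the 19 genes of mitosis, the spindle and proliferation from -0.31 to 0.09, which overlap.

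**Figure D3:**
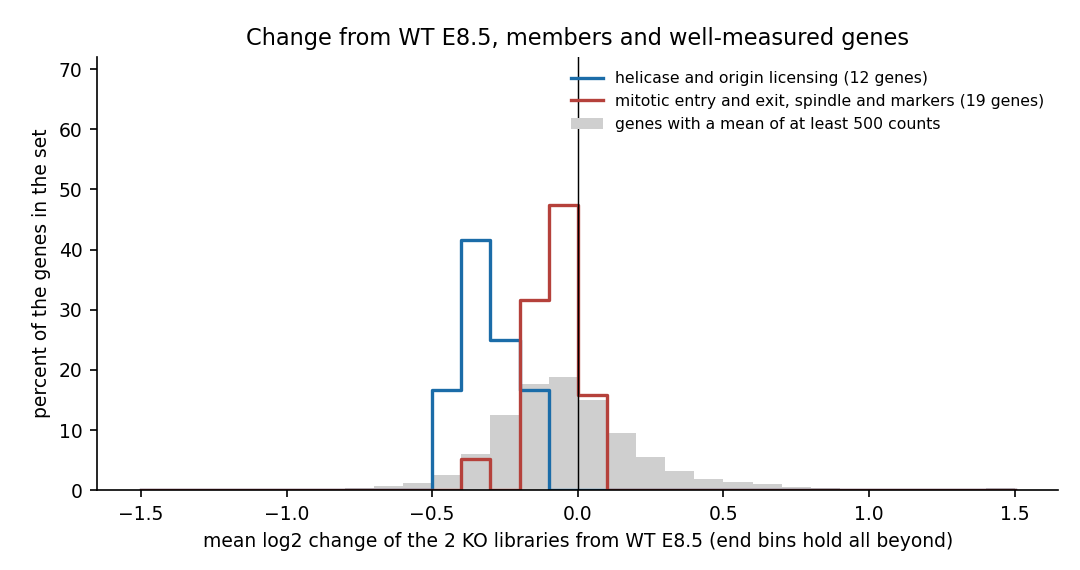
Share of genes (y axis, percent of each set) by mean log2 change of both KO libraries from WT E8.5 (x axis, bins of equal width), for the 12 helicase and licensing genes, the 19 genes of mitosis, spindle and proliferation, and the 5205 genes with a mean of at least 500 reads (grey). The medians are -0.32, -0.05 and -0.06, and all 12 helicase genes lie left of 0 but inside the grey distribution.

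The second question was whether the KO embryos resembled younger WT embryos in these genes. Against WT E7.5, 1 of the 48 was 2-fold higher in both KO libraries, Ccnd2, where 6.91% of all genes kept were higher. None was 2-fold lower, against 2.7%. By any size, 15 of the 48 were higher in both KO libraries (43.9% of all genes) and 31 lower (38.2%). The WT stages themselves differed 2-fold in 1 of the 48, again Ccnd2, which was higher at E8.5 by 1.67 (log2), against 12.2% of all genes higher and 7.82% lower. Each of these differences rests on 1 WT library per stage.

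Directions against WT E7.5 were mixed between and within roles. The helicase and licensing genes had negative medians, as did the genes of mitotic entry and exit (-0.18 in KO1 and -0.17 in KO2), while the spindle, chromosome and proliferation genes had a median change of 0.31 in KO1 and 0.22 in KO2. Mki67 was 0.69 and 0.50 above WT E7.5, Cenpf 0.42 and 0.43, and Kif11 0.58 and 0.41. The edgeR test called 0 of the 48 after adjustment, and 19 had an unadjusted p under 0.05, where 24.4% of all genes had one. DESeq2 called 6 after adjustment, against 5.01% of all genes: Cdt1, Mcm3, Mcm5 and Mcm7 were lower and Ccnd2 and Mki67 higher, each in 2 of 2 KO libraries.

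The WT E7.5 library differed from the other 3 by transcript length. From the fifth of genes with the shortest transcripts to the fifth with the longest, the median change from E7.5 to WT E8.5 ran from -0.35 to 0.49. The KO libraries ran from -0.35 to 0.49 in KO1 and from -0.26 to 0.40 in KO2 against WT E7.5, but only from -0.02 to -0.03 and from 0.04 to -0.11 against WT E8.5. By GC content the gradient from E7.5 to WT E8.5 had the opposite sign, from 0.44 to -0.36, and against WT E8.5 the KO libraries ran from -0.13 to 0.10 and from -0.12 to 0.13. The spindle, chromosome and proliferation genes were long, with a median transcript of 5020 bases against 3392 over all genes, and the helicase genes were not, at 3462.5 bases. After each library was corrected by the median of genes of like length and GC content, the spindle genes changed sign against WT E7.5, to medians of -0.09 in KO1 and -0.12 in KO2, and Ccnd2 was no longer 2-fold higher in both (1.47 and 0.90). The genes of mitotic entry and exit also changed sign against WT E7.5, to medians of 0.03 in KO1 and 0.04 in KO2. The corrected changes from WT E7.5 were 0.15 and 0.08 for Mki67, -0.21 and -0.16 for Cenpf, and 0.18 and 0.02 for Kif11. The helicase genes kept medians of -0.48 and -0.34 against WT E7.5, and -0.30 and -0.28 against WT E8.5.

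**Figure D4:**
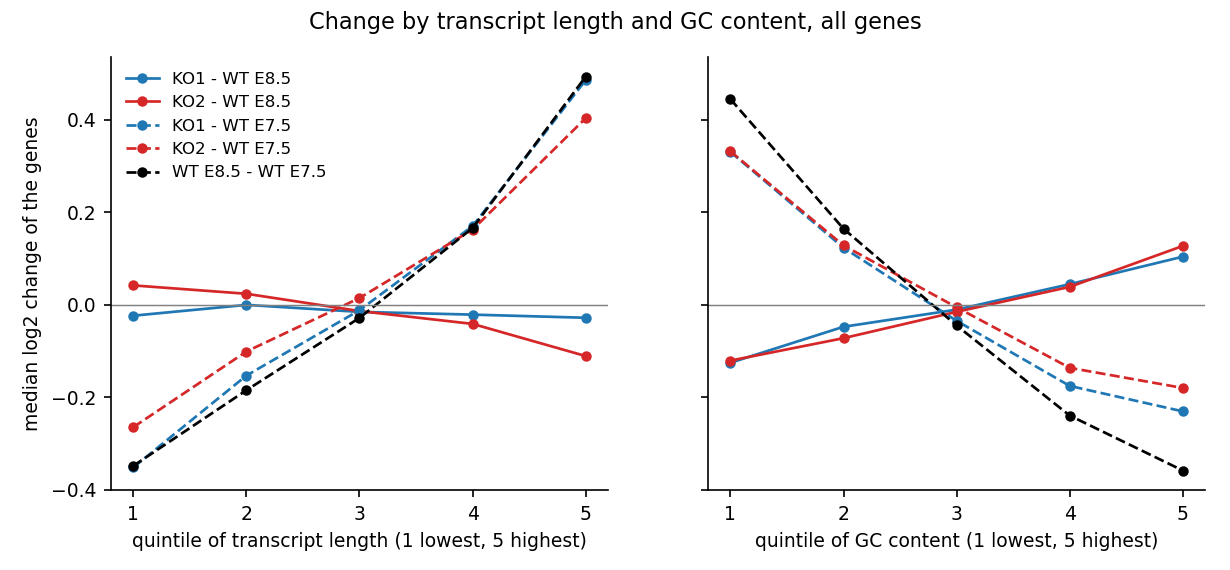
Median log2 change of all annotated genes with a mean of at least 50 reads (y axis) in 5 equal groups of transcript length (left) and GC content (right), for each KO library against each WT library and for the WT stages. The dashed lines, which share WT E7.5, climb from below -0.2 to above 0.4 with length, whereas the solid lines against WT E8.5 stay between -0.11 and 0.04 on the left.

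The third question was which genes lay outside both WT stages. Both KO libraries were below both WT libraries for 20 of the 48, where 17.6% of all genes kept were. Among the 5205 genes with a mean of at least 500 reads the share was 23.6%. The 20 were the 12 helicase and licensing genes together with Rrm1, Rrm2, E2f1, Cdk4, Cdc25a, Cdk1, Plk1 and Bub1b. Ccnb1 and Cdk6 were above both, against 18.4% of all genes. Corrected for length and GC content, 14 of the 48 were below both (18.6% of all genes), among them 8 of the 12 helicase and licensing genes: Mcm2 to Mcm7, Cdc6 and Cdt1. The others were Rrm2, E2f1, E2f2, Cdc25a, Cdk1 and Plk1. Outside the helicase and licensing role, Rrm1, Cdk4 and Bub1b thus dropped out and E2f2 was added. Of the KO libraries against both WT libraries as 1 group, the edgeR test called 0 of the 48 after adjustment, and Cdt1, E2f1, Mcm3 and Mcm7 had an unadjusted p under 0.05, where 3.93% of all genes did.

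The KO libraries differed from each other by less than 2-fold in all 48 genes, although 5.99% of all genes were 2-fold higher and 4.89% lower in KO2 than in KO1. Their counting interval nonetheless excluded 0 for 11 genes that were higher and 18 that were lower in KO2. By that interval 7 of the 12 helicase and licensing genes were higher and 2 lower in KO2, and 5 of the 8 spindle, chromosome and proliferation genes were lower. No share over all genes was computed for these counts. The 48 genes had a median of 2191 reads against 285 over the genes kept, and more reads narrow the interval. The differences between the KO libraries also measure the spread between pools of embryos of different morphology.

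Other genes of the same pathways were read from longer lists. Of 40 other replication genes none differed 2-fold from WT E8.5 in both KO libraries and none passed the adjusted edgeR test, but 31 were lower in both (37.6% of all genes kept) and 3 higher (36.3%), namely Dbf4, Pold2 and Rnaseh2a. Of the 40, 26 were below both WT libraries (17.6% of all genes), and their median change from WT E8.5 was -0.27 in KO1 and -0.15 in KO2. Dut, which clears dUTP before it can enter DNA, had 2790 reads in WT E7.5, 2364 in WT E8.5, 1104 in KO1 and 1813 in KO2, changes of -0.55 and -0.37 from WT E8.5. Ticrr, which helps to activate the loaded helicase, had 945, 1004, 475 and 741 reads, changes of -0.53 and -0.42. Pole, the leading-strand polymerase, had 1647, 1949, 992 and 1516. At the other end, Pold2 had changes of 0.14 and 0.30. Corrected for length and GC content, 26 of the 40 were below both WT libraries, against 18.6% of all genes.

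Of 46 other mitosis genes 21 were lower (37.6% of all genes) and 11 higher (36.3%) than WT E8.5 in both KO libraries. Below both WT libraries were 7 of the 46, a share near the 17.6% of all genes. Their median change was -0.03 in KO1 and -0.07 in KO2, and their summed level was 5228 CPM in WT E7.5, 5393 in WT E8.5, 5300 in KO1 and 5170 in KO2. Kif15, a spindle motor, was the lowest with 985, 1678, 794 and 985 reads, changes of -0.53 and -0.75 from WT E8.5. Pttg1, which encodes securin, was the highest with 716, 567, 524 and 675 reads, changes of 0.43 and 0.26. Against WT E7.5, Aspm was 2-fold higher and Mybl2, a B-MYB factor that activates G2 genes, 2-fold lower in both KO libraries. Aspm, which acts at the spindle poles, had 668, 1728, 1101 and 1449 reads, and its level in both KO libraries was nearer to that of WT E8.5. Mybl2 had 2574 reads in WT E7.5, 1158 in WT E8.5, 813 in KO1 and 1223 in KO2, so that its level in both KO libraries was near that of WT E8.5. Corrected for length and GC content, neither stayed past 2-fold, with changes from WT E7.5 of 0.68 and 0.66 for Aspm and of -0.99 and -0.96 for Mybl2, while Cdc25b, a phosphatase that activates CDK1, passed it at 1.38 and 1.02.

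**Figure D5:**
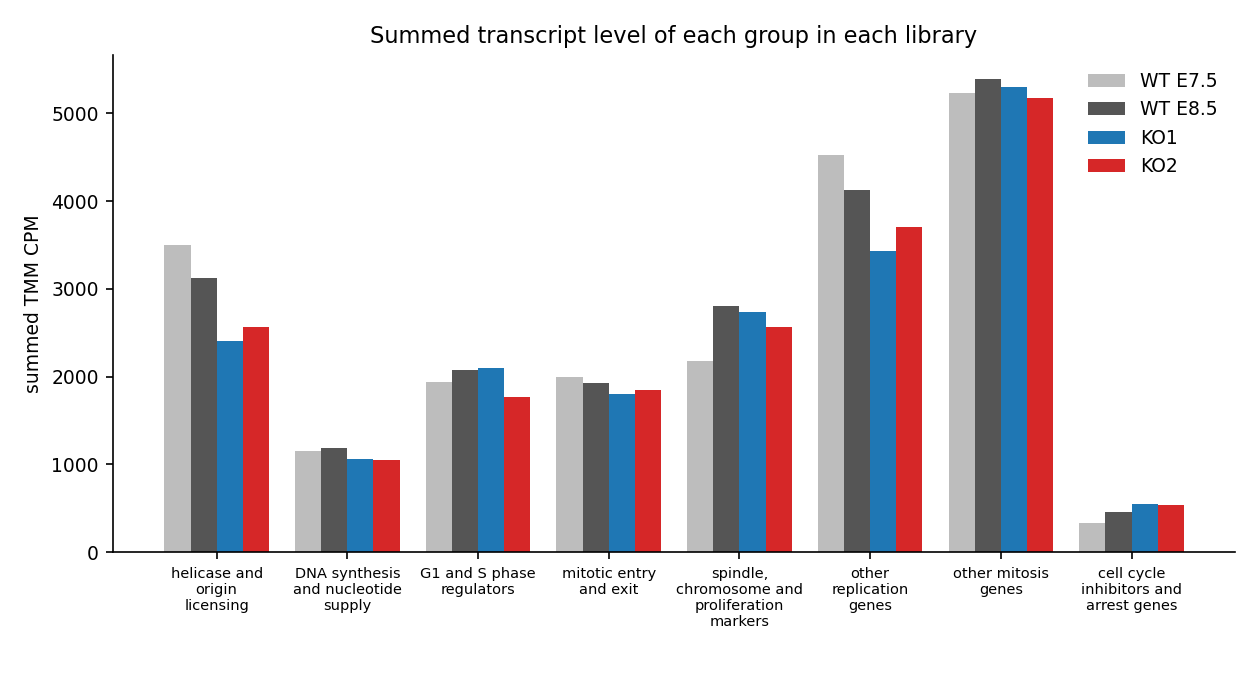
Summed TMM CPM (y axis, from 0) of the 5 roles of the 48 genes and of 3 longer lists in each library. The helicase and licensing genes and the other replication genes are lowest in the KO libraries. So are the genes of DNA synthesis and nucleotide supply, and those of mitotic entry and exit at 1989, 1929, 1796 and 1842 CPM in WT E7.5, WT E8.5, KO1 and KO2. The other mitosis genes stay between 5170 and 5393 CPM in all 4 and are lowest in KO2.

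Of 15 components of the E2F and DREAM machinery none differed 2-fold from WT E8.5 in both KO libraries, with 10 lower (37.6% of all genes) and 3 higher (36.3%) by any size. Rb1, the retinoblastoma protein that holds E2F factors in check, had 69 reads in WT E7.5, 231 in WT E8.5, 96 in KO1 and 116 in KO2, changes of -0.71 and -0.97 from WT E8.5. E2f6, a repressive E2F factor, had 585, 708, 622 and 905 reads, changes of 0.36 and 0.37, and lay above both WT libraries. E2f4 had 2487, 1958, 929 and 1685 reads and lay below both. None of these changes passed the adjusted edgeR test.

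Of 14 cell cycle inhibitors and arrest genes none differed 2-fold from WT E8.5 in both KO libraries, 8 were higher (36.3% of all genes) and 4 lower (37.6%) by any size, and none passed the adjusted edgeR test. Ccng1, cyclin G1, a target of p53, had 552 reads in WT E7.5, 594 in WT E8.5, 666 in KO1 and 1248 in KO2. Both KO libraries lay above both WT libraries, with changes from WT E8.5 of 0.71 and 1.08. Its edgeR p was 0.0141 unadjusted and 0.666 adjusted. Cdkn1a, which encodes the CDK inhibitor p21 and is also a p53 target, had 269, 126, 123 and 185 reads, higher than WT E8.5 by 0.51 and 0.56 with changes from WT E7.5 of -0.62 and -0.57. Cdkn1b (p27) had 390, 497, 445 and 635 reads and Cdkn1c (p57) 1253, 2664, 2228 and 3124, and both lay above both WT libraries. At the other end, Gadd45a had 61, 202, 79 and 77 reads, changes of -0.79 and -1.35 from WT E8.5. Cdkn2b had the highest changes, 0.79 and 1.18, on at most 17 reads per library. Against WT E7.5, Cdkn1c was 2-fold higher, by 1.33 and 1.28, and Cdkn2a and Gadd45b were 2-fold lower in both KO libraries, on at most 76 and 182 reads. Corrected for length and GC content, neither of the latter stayed past 2-fold in both, at -0.99 and -0.75 for Cdkn2a and at -1.40 and -0.68 for Gadd45b, while Cdkn1c stood at 1.76 and 1.64. The summed level of the 14 was 329 CPM in WT E7.5, 454 in WT E8.5, 542 in KO1 and 541 in KO2.

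Per kilobase of merged exons, Cdk4 was the most abundant of the 48 in WT E8.5, at 203 CPM per kilobase. Cdk6, at 0.704, was the least abundant, below E2f2 at 2.37. The order between them depends on the length used: the merged exons of Mcm2 span 6956 bases and its longest annotated transcript 3494, so the MCM genes are not ranked here.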

How the data were processed

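RNA of whole ICR mouse embryos was sequenced with a stranded mRNA kit in 4 libraries, grouped by the sample labels. The authors deposited raw counts per gene, without normalization. Per the submitters' processing notes and the study's methods, reads were trimmed with cutadapt 2.8 and checked with FastQC 0.11.7. They were aligned to mm10 with HISAT2 2.1.0, handled with SAMtools 1.9 and counted strand-specifically over exons with featureCounts 2.0.0. Total counts were 12095555 in WT E7.5, 12562640 in WT E8.5, 8198402 in KO1 and 12008252 in KO2.

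Counts were scaled by TMM in edgeR 4.0.16 (R 4.3.3), with factors of 0.983, 0.978, 1.02 and 1.01. A gene was kept if any library held 10 or more counts of it. Log2 CPM used a prior count of 2. A change was called above 1 or below -1 on the log2 scale in both KO libraries. The study used the same fold change cut-off, and the requirement of both libraries was added here. Beside it stood two-sided quasi-likelihood F-tests (glmQLFTest) with Benjamini-Hochberg adjustment over all genes kept at 0.05, in a fit of 3 groups and, against both WT libraries, of 2 groups, with DESeq2 1.42.0 as the alternative test. Nothing in the labels says that the KO replicates came from separate litters, so p-values measure only the spread between these libraries. Intervals are exact Clopper-Pearson 95% binomial intervals and cover no more than counting error, because these reads carry no molecular identifiers and may repeat 1 molecule.

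The members and gene lists were chosen with earlier results of these data known, so no list is independent support. The 48 genes were counted by role. Named with every value were those past the criterion, those outside both WT libraries, the 2 highest and 2 lowest of each role by mean change from WT E8.5, and X-linked members. Other genes named with their values fall outside that rule, with their values known when they were picked. Of the other lists, genes past the criterion and the extremes were named, with further genes chosen after their values were seen. Gene positions came from GENCODE vM21 on GRCm38, the assembly of mm10, and promoters from RefSeq on GRCm38.p6. Other settings tried were plain CPM, size factors of DESeq2, a minimum of 50 counts, no filter, a prior count of 0.5, a 1.5-fold threshold and leaving out each KO library. A correction by quintiles of transcript length and GC content, and a background of genes averaging 500 counts or more, were added after seeing the data. Analyses used Python 3.11.15 and matplotlib 3.10.9.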

Additional observations from a re-analysis of the deposited data

How the results depend on the processing

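Of 162 values of the comparisons under the alternatives, 147 stayed within their limits. Scaling by plain CPM, which moved the median change of all genes from WT E8.5 to 0.06 and 0.05, gave a median change of the 48 genes of -0.10, of the helicase and licensing genes of -0.24, and 4 genes above both WT libraries. Correction for length and GC content, chosen after seeing the data, gave 10 genes higher than WT E8.5, 4 above both WT libraries and 0 called against WT E7.5. The median changes became -0.10 for the 48 genes, 0.030 for the spindle, chromosome and proliferation genes against WT E8.5 and -0.10 for the latter against WT E7.5. A 1.5-fold threshold called 4 of the 48 genes against WT E7.5 (15.9% of all genes higher and 8.23% lower), DESeq2 passed 6 (5.01% of all genes) and the edgeR test without the filter 2. The cause of these shifts was not tested. Leaving out 1 KO library (KO replicate 1 or KO replicate 2) gave 7 to 17 genes higher than WT E8.5, 31 to 41 lower, 1 to 2 called against WT E7.5, 2 to 7 above and 21 to 28 below both WT libraries, where requiring a single library cannot make a count smaller by construction. Of all genes, 25.6% were below both WT libraries without KO1 and 30% without KO2. Without KO2 17 of the 48 were higher than WT E8.5 and 7 above both WT libraries. For the counts in this paragraph that stand without a share over all genes, none was computed under that setting. Those counts therefore cannot be set against the other genes. All 12 helicase and licensing genes were below both WT libraries without either. No paired analysis was possible because each WT stage has 1 library and shares no pair of replicate numbers with the KO libraries. Of the changes of single members, 41 of 384 values moved beyond the spread between KO libraries, and 31 took another sign. Depth limited Cdk6 most, with 82 to 140 reads.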
